A study of Chamaelirium luteum with 2 samples.

Results

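The 6 arms of scaffolds 1, 4 and 5 of *Cha. luteum* are described here by their peaks of accessible chromatin. A peak belonged to an arm if its summit, the position of highest signal, lay more than 2 Mb outside the centromere of its scaffold. Centromere intervals were taken from the CENH3-ChIP-seq mapping of the study. The left arm is the one with the lower coordinates. By this rule 7747 of the 39233 peaks of replicate 1 (19.7%) and 8225 of the 41385 peaks of replicate 2 (19.9%) were members. The same scaffolds held 528 further summits in replicate 1 and 596 in replicate 2 within 2 Mb of a centromere, and 76 and 95 inside one, which were left out.

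The data are ATAC-seq libraries of nuclei from fresh leaves, replicates 1 and 2 of a single condition, with about 75000 nuclei and paired reads of 151 cycles each. There is no treated or mutant group, so the comparisons are between arms, along arms and between scaffolds. Both labels carry the code A112, whose meaning they do not state, and do not say whether the libraries came from separate plants. For replicate 2 this code differs from the code in its deposited peak names. The label was followed, and every SD is the spread between the 2 libraries, which may be technical.

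In ATAC-seq the Tn5 transposase inserts sequencing adapters mainly where DNA is free of nucleosomes, so a peak marks an open stretch, in plants often a promoter or a distal regulatory element. Monocentric chromosomes carry their kinetochore at a single region with an arm on either side, and in many plants genes and open chromatin thin out along the arm towards that region. *Cha. luteum* has unusually large single centromeres, called macro-monocentromeres, so its arms begin at the border of a very long CENH3 domain.

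Together the arms covered 135.265 Mb. They held 57.3 summits per Mb in replicate 1 and 60.8 in replicate 2, a mean of 59.0 ± 2.499 (SD, n = 2), and peaks covered 2.47% ± 0.0931 of their sequence. The median peak was 368 bp wide in replicate 1 and 362 bp in replicate 2, with 5% of peaks under 191.5 bp and 5% over 839 bp. The fold enrichment is the signal at the summit over the background that the peak caller modelled, each with 1 added. Its median was 4.72 in replicate 1 and 5.02 in replicate 2. The count of signal at a summit can be solved from the fold and the p-value of its peak. It is called fragments here, though whether the caller counted fragments or single reads is not stated. The medians were 32 and 33 fragments over a background of 5.71 and 5.47. No member had fewer than 11 fragments, so weaker sites are not listed, and the number of reads per library is unknown. In replicate 1, 81.5% of the members overlapped a peak of replicate 2, and 76.9% of the members of replicate 2 overlapped one of replicate 1.

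The 2-Mb limit fell in sequence with peaks on both sides of it. The innermost members lay 2.00 to 2.11 Mb from the centromere edge, were 230 to 742 bp wide and had folds of 2.90 to 10.2. The nearest summits on the other side lay 1.98 to 2.00 Mb from it, with widths of 183 to 502 bp and folds of 3.10 to 10.5.

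Scaffold 5 had the sparsest arm, on its left, and scaffold 1 the densest, also on its left. The left arm of scaffold 1 (1 to 25141007) held 64.4 summits per Mb in replicate 1 and 68.4 in replicate 2. The right arm of scaffold 1 (44438857 to 68265395) held 59.3 and 62.6. Both libraries thus placed more summits on the left, by 5.05 and 5.76 per Mb, a mean difference of 5.40 ± 0.498. The mean distance from a summit to the next was 15.1 ± 0.649 kb on the left and 16.4 ± 0.578 kb on the right, while the medians of 8.92 and 8.998 kb did not differ beyond their spread. Among peaks that overlapped the other library by at least 50% of both peaks, the density difference was 3.03 per Mb.

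On scaffold 4 the density of the arms did not differ beyond the spread between libraries. The left arm (1 to 21695210) held 54.1 summits per Mb in replicate 1 and 59.2 in replicate 2, and the right arm (37424699 to 60505644) held 56.1 and 58.4. The left arm was lower by 1.95 per Mb in replicate 1 and higher by 0.780 in replicate 2, a mean difference of -0.585 ± 1.93. With 5 Mb in place of 2 Mb dropped beside the centromere it was -5.04 ± 1.76.

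Scaffold 5 was the most lopsided. Its left arm (1 to 13525123), the shortest of the 6 at 13.5 Mb, held 43.4 and 47.5 summits per Mb in replicates 1 and 2. Its right arm (28162204 to 56158475), the longest at 28.0 Mb, held 59.3 and 62.1. The left arm was lower by 15.9 per Mb in replicate 1 and by 14.6 in replicate 2, and its density was 0.749 times that of the right arm. The difference of -15.2 ± 0.907 was far larger than the spread between libraries.

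In order of density the arms were scaffold 1 left (66.4 per Mb), scaffold 1 right (61.0), scaffold 5 right (60.7), scaffold 4 right (57.2), scaffold 4 left (56.6) and scaffold 5 left (45.5). Scaffold 1 right exceeded scaffold 5 right by 0.0877 in replicate 1 and 0.504 in replicate 2, so these neighbours could not be told apart, and neither could the arms of scaffold 4. The step between scaffold 5 right and scaffold 4 right was 3.45 ± 0.366, and the step between scaffold 4 left and scaffold 5 left was 11.2 ± 0.657. No test was made of these differences, since an exact permutation test over 3 scaffolds or 2 libraries cannot reach a p under 0.05.

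The profile of each arm had its own shape, and the plot of summits along the arms shows the windows of both libraries against distance from the centromere.

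**Figure D1:**
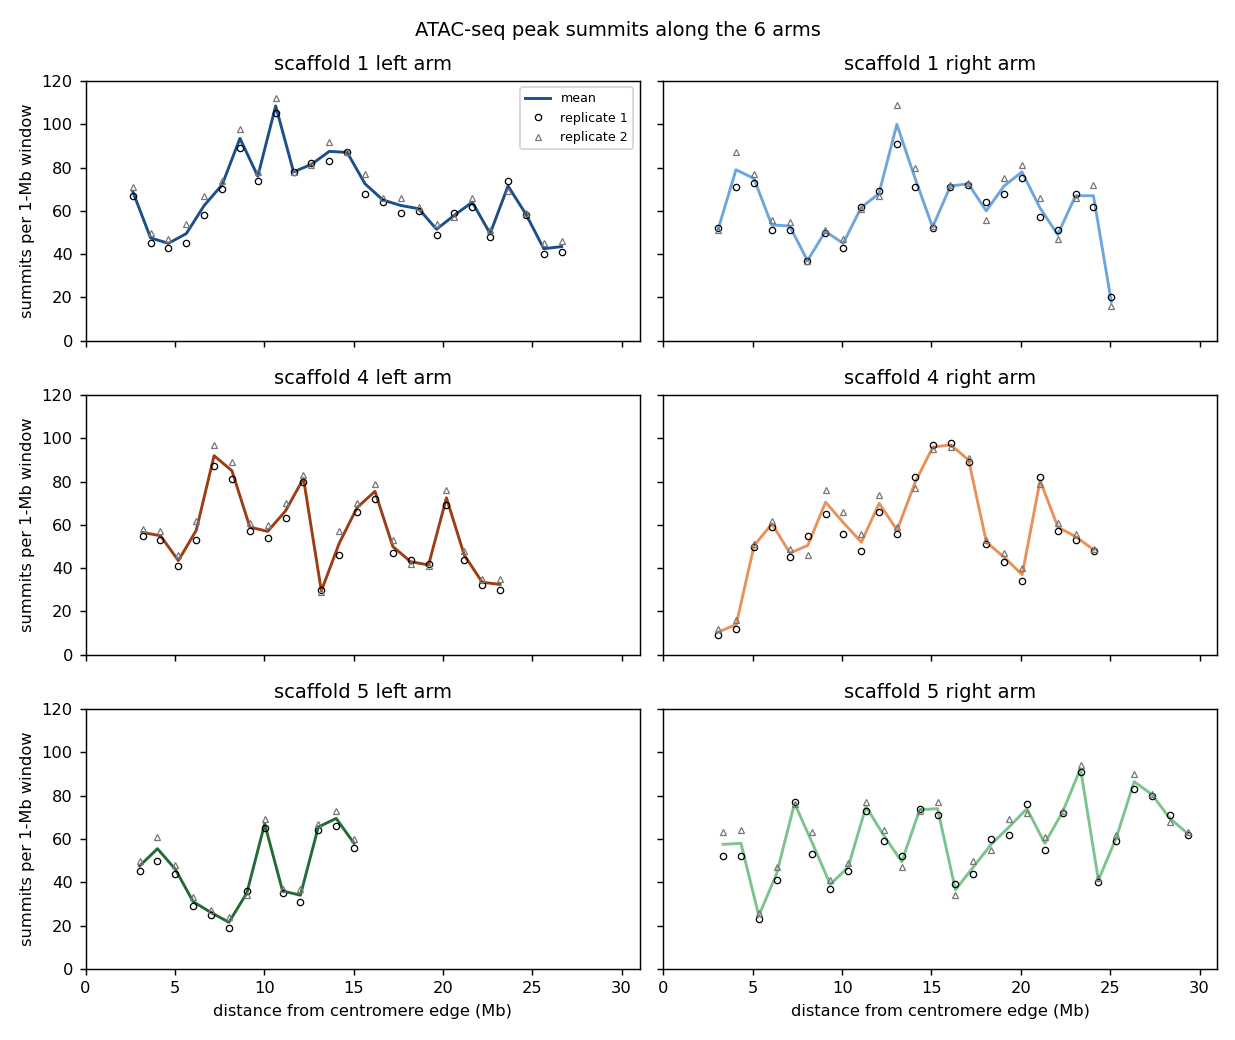
Summits per full 1-Mb window (y axis) against the distance of the window's middle from the centromere edge in Mb (x axis), 1 panel per arm, left arms on the left. Circles are replicate 1, triangles replicate 2 and the line their mean; scaffold 1 left reaches a mean of 108.5 summits, and scaffold 4 right begins with a window of 9 and 12.

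Each arm was split at its midpoint into an outer and an inner part, to ask whether summits became more frequent away from the centromere. Over the 6 arms the outer part exceeded the inner by a mean of 2.499 ± 1.63 summits per Mb, higher outside in 4 of 6 arms. A sign-flip permutation test over the arms (exact, two-sided) gave p = 0.656, the smallest p that 6 arms allow being 0.0312. No common gradient was detectable, and 5 of the 6 arms had differences larger than the spread between libraries, in opposite directions.

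Of the 6 arms, 3 were fuller outside in both libraries. The outer part of scaffold 4 right held 66.2 summits per Mb, against 48.2 in its inner part, and the excess was 19.2 in replicate 1 and 16.8 in replicate 2. On scaffold 5 left the outer part held 53.1 and the inner part 37.9, an excess of 16.4 and 14.0. On scaffold 5 right the values were 64.5 outside and 56.9 inside, an excess of 8.93 and 6.36.

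The left arms of scaffolds 1 and 4 ran the other way. On scaffold 1 left the outer part held 59.9 summits per Mb and the inner part 72.9, a difference of -11.9 in replicate 1 and -14.1 in replicate 2. Scaffold 4 left had 50.01 outside and 63.3 inside, a difference of -12.2 and -14.4. On scaffold 1 right the outer and inner parts held 61.2 and 60.8, and the difference of 1.34 in replicate 1 and -0.672 in replicate 2 changed sign between libraries.

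The arms were next cut into 5 sections of equal length, numbered from the centromere outwards. No arm rose or fell at every step in both libraries. The density in sections 1 to 5 of scaffold 1 left was 55.1 ± 4.50, 85.2 ± 3.23, 79.8 ± 2.81, 58.3 ± 2.25 and 53.6 ± 1.27 summits per Mb. Its maximum thus lay inside the midpoint of the arm, but not beside the centromere. Scaffold 4 left had a like shape at a lower level, with 51.2 ± 3.91, 72.5 ± 5.38, 56.2 ± 2.61, 57.6 ± 2.61 and 45.7 ± 3.42.

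Scaffold 1 right fell, rose to section 3 and fell again, with 61.7 ± 4.15, 50.05 ± 0.742, 75.02 ± 4.01, 66.5 ± 1.48 and 51.6 ± 1.19 summits per Mb. On scaffold 4 right the density was 32.9 ± 0.919, 55.8 ± 3.22, 74.4 ± 1.07, 63.4 ± 1.38 and 59.7 ± 1.68. That arm had the emptiest section 1 of all 6, the others lying between 49.4 and 61.7.

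Scaffold 5 left was lowest in the middle, with 49.4 ± 4.97, 33.1 ± 2.35, 35.9 ± 1.57, 47.1 ± 1.83 and 61.9 ± 3.92 summits per Mb. Scaffold 5 right was closest to an even slope, with 52.9 ± 3.54, 56.3 ± 3.54, 56.8 ± 0.253, 68.6 ± 1.52 and 68.9 ± 1.26. Sections 2 and 3 of that arm held 53.8 and 56.6 in replicate 1 but 58.8 and 57.0 in replicate 2, so this step had opposite signs in the libraries.

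On scaffold 5 left the modelled background was lowest in the sparsest sections, but it did not follow the density elsewhere. The median background at the summits was 3.68 fragments in section 2 and 3.75 in section 3, against 4.87 to 6.38 in the other sections. It was highest, at 6.38, in section 4, where the density of 47.1 summits per Mb was below the 49.4 of section 1, with 4.87. In sections 2 and 3, 43.0% and 40.8% of the summits had the genome-wide background, which is the lowest the caller uses, against 11.4% to 20.9% of the summits of whole arms. In section 1 of scaffold 4 right that share was 27.3%. It was nearly as high, 26.0%, in section 4 of scaffold 4 left, where the density was 57.6 summits per Mb. A high share was thus not limited to sparse sections. The part of the background in the low densities was not tested.

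**Figure D2:**
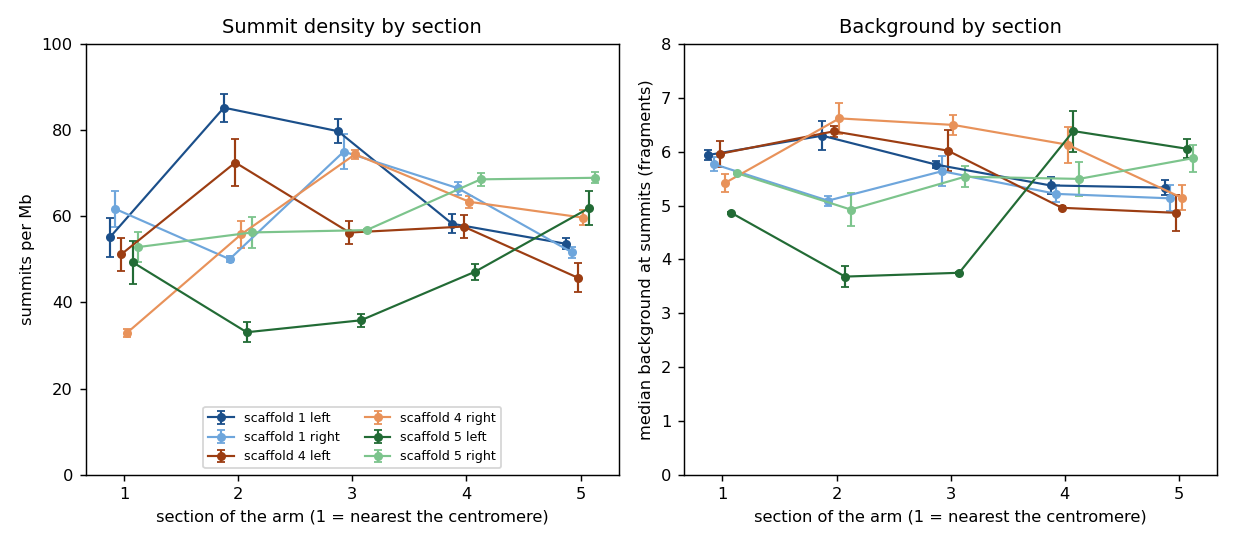
Summits per Mb (left panel) and median modelled background at the summits in fragments (right panel) in 5 equal parts of each arm, numbered from the centromere outwards; points are means and bars the SD of 2 libraries, offset sideways for legibility. Scaffold 5 left dips to 33.1 and 35.9 summits per Mb in sections 2 and 3, where its background is 3.68 and 3.75 fragments.

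The ends of the arms also differed. Beside the centromere limit the innermost 1 Mb held 70 and 79 summits in replicates 1 and 2 on scaffold 1 left, but 18 and 17 on scaffold 4 right. The other inner ends had means of 43.5 to 57.5. At the scaffold ends the outermost 1 Mb held 16 and 17 summits on scaffold 1 right, 30 and 35 on scaffold 4 left, 41 and 46 on scaffold 1 left and 47 and 49 on scaffold 4 right. Both outer ends of scaffold 5 held 56 and 60.

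Between 2 and 5 Mb from the centromere, scaffold 4 right held 18.7 summits per Mb in replicate 1 and 19.3 in replicate 2, against 48.8 to 64.8 on the other 5 arms as means of both libraries. Nearer to the centromere, within 2 Mb and so outside the arm as defined here, the same side held 34.0 ± 4.24 summits per Mb. From 5 to 10 Mb the density was 56.0 ± 1.70.

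In windows of 1 Mb on the grid of each scaffold, the 131 windows of the 6 arms had a median of 57 summits in replicate 1 and 61 in replicate 2. The lowest window had 9 summits in replicate 1 and 12 in replicate 2, and the highest a mean of 108.5 ± 4.95. The libraries ordered the windows alike, with Spearman correlations across windows of 0.935 to 0.980 within single arms. These windows share libraries and are not independent replicates, so no p is given.

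On this grid the fullest window of all lay on scaffold 1 left, 16000001 to 17000000, with 105 summits in replicate 1 and a mean of 108.5 ± 4.95 over both libraries, 10.1 Mb from the centromere. On scaffold 1 right it was 55000001 to 56000000 with 91 and 109, near the middle of the arm. Scaffold 4 right reached 98 and 96 at 51000001 to 52000000, and scaffold 4 left 87 and 97 at 16000001 to 17000000. The fullest windows of scaffold 5 were 49000001 to 50000000 on the right, with 91 and 94, and 1000001 to 2000000 on the left, with only 66 and 73. Thus the richest Mb of scaffold 5 left held fewer summits than that of any other arm in either library. With the grid moved by 500 kb the fullest window of all was on scaffold 4 right instead (51500001 to 52500000), with a mean of 114.5 summits, against 101 on scaffold 1 left.

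On the same grid the emptiest window was on scaffold 4 right, 38000001 to 39000000, with 9 and 12 summits. On scaffold 1 right the window before the scaffold end, 67000001 to 68000000, held 20 and 16. On scaffold 5 left 7000001 to 8000000 held 19 and 24, and on scaffold 5 right 31000001 to 32000000 held 23 and 26. The lowest on scaffold 4 left was 10000001 to 11000000 with 30 and 29. On scaffold 1 left no window fell under 40 and 45, which were counted at 1000001 to 2000000. On the moved grid the emptiest window held a mean of 38 summits on scaffold 1 left (22500001 to 23500000, near the other end of the arm), 33 on scaffold 1 right, 18.5 on scaffold 4 left, 16 on scaffold 4 right and 20 on scaffold 5 left. The emptiest of all was then on scaffold 5 right (42500001 to 43500000), with 15.5, so these lows and their order depended on where the windows began.

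The peaks of the emptiest windows had folds near those of other members on most arms, but higher ones on scaffold 1 left, with medians of 6.02 and 5.98. The median fold of these 6 windows was 4.52 to 6.02 in replicate 1 and 4.81 to 5.98 in replicate 2, against medians of 4.72 and 5.02 of all members. Their median background was 3.38 and 3.24 fragments on scaffold 1 right, and 3.38 and 3.19 on scaffold 4 right. It was 3.38 and 3.26 on scaffold 5 left, and 3.38 and 3.18 on scaffold 5 right. Scaffold 1 left had 4.56 and 4.31, and scaffold 4 left 6.25 and 5.17, against 5.71 and 5.47 of all members. The part of the background in these low counts was not tested. In the fullest window of scaffold 1 left the background was 7.87 and 7.63 fragments, with folds of 4.64 and 4.68.

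Across the 131 windows the number of summits went with the median background (Spearman rho = 0.552) and with the median fragments at the summit (0.469). It went less with the median width (0.274), the median fold (-0.175) and the distance from the centromere (0.144). All of these values come from the same peaks, which is why they are given as description.

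Poor windows were gathered on scaffold 5 left. Of the 131 windows on the first grid, 17 had a mean under 40 summits, of which 6 were among the 13 windows of scaffold 5 left and 0 among the 25 of scaffold 1 left. A mean of at least 80 was reached by 16 windows, of which 5 were on scaffold 1 left and 0 on scaffold 5 left. The longest run of neighbouring windows under 40, a measure chosen after the values were seen, was 6000001 to 10000000 on scaffold 5 left, with 109 summits in replicate 1 and 118 in replicate 2 over 4 windows. In it 52.3% and 47.5% of the summits had the lowest background. The next were pairs of windows, on scaffold 4 right at 38000001 to 40000000 with 21 and 28 summits, on scaffold 4 left at 1 to 2000000 with 62 and 70, and on scaffold 5 left at 3000001 to 5000000 with 66 and 74. In the last pair the background was 6.74 and 5.93 fragments, above the medians of all members.

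Unevenness was measured as the variance of the window counts over their mean, which is 1 for summits placed at random. It was 5.74 ± 0.0574 over all 131 windows. Scaffold 4 right was the most uneven, at 9.33 in replicate 1 and 8.02 in replicate 2, and stood above the other 5 arms in both. The remaining arms lay between 4.35 ± 0.134 on scaffold 1 left and 5.89 ± 0.125 on scaffold 5 left. On scaffold 1 right it was 3.78 and 5.67, so the libraries differed most there.

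At a finer scale the arms contained 1348 full windows of 100 kb. Of these 57 were empty in replicate 1 and 49 in replicate 2. On scaffold 5 left 14 and 12 of the 135 windows were empty, 9.63% ± 1.05, against 5 and 5 of 279 on scaffold 5 right, 1.79%. Scaffold 4 had 12 and 9 empty windows on the left and 17 and 12 on the right. Scaffold 1 had 2 and 2 on the left and 7 and 9 on the right. Scaffold 5 left thus had the largest share of empty windows and scaffold 1 left the smallest.

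The fullest 100 kb of each arm held from 10 to 18 summits. On scaffold 1 left it was 16600001 to 16700000, with 18 in each library, and lay inside the fullest 1-Mb window of that arm. The same was true on scaffold 4 right (51400001 to 51500000, 15 in each) and on scaffold 5 right (49800001 to 49900000, 13 and 16). On scaffold 1 right 56000001 to 56100000 held 15 and 18, directly beyond its fullest 1 Mb. On scaffold 4 left 9700001 to 9800000 held 15 and 17. On scaffold 5 left 3400001 to 3500000 held 10 and 13, in a 1-Mb window that was itself under 40 summits.

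Stretches without a peak in either library were longest on scaffold 5 left, where 659 kb (3706228 to 4365531) held none. It lies in the same poor pair of windows as the fullest 100 kb of the arm, so the densest 100 kb and the longest empty stretch of scaffold 5 left lay close together. The longest such stretches of the other arms were 238 kb on scaffold 4 right (38081154 to 38318979), 225 kb on scaffold 1 right (67563695 to 67789128), 224 kb on scaffold 5 right (43217006 to 43441373), 216 kb on scaffold 4 left (10717453 to 10933336) and 145 kb on scaffold 1 left (11596211 to 11741310). Those on scaffold 1 right and on both arms of scaffold 4 lay in the emptiest 1-Mb window of their arm. Stretches of at least 100 kb numbered 9 on scaffold 1 left and 20 on scaffold 1 right, 17 on scaffold 4 left and 20 on scaffold 4 right, and 12 on either arm of scaffold 5. They took 17.7% of scaffold 5 left and 6.31% of scaffold 5 right, and 4.34% of scaffold 1 left and 11.2% of scaffold 1 right. On scaffold 4 their shares were 11.3% on the left and 12.8% on the right. On scaffold 4 right, replicate 1 alone had a longer distance between neighbouring summits, 471.5 kb, where the longest in replicate 2 was 238 kb. Reads mapping to several places had been dropped before peaks were called, so a stretch without peaks need not be closed chromatin. The part of repeats and of assembly gaps in these stretches was not tested.

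The spacing of summits set scaffold 5 left apart again. Its median distance from a summit to the next was 13.2 kb in replicate 1 and 11.9 kb in replicate 2, and that of the other 5 arms was 9.10 to 9.81 kb in replicate 1 and 8.64 to 9.20 kb in replicate 2. The left arm of scaffold 5 exceeded the right by 3.48 kb and 2.72 kb, a mean of 3.10 ± 0.542 kb. On scaffold 1 the left arm differed by -0.0810 ± 0.152 kb and on scaffold 4 by 0.274 ± 0.622 kb, both within the spread between libraries.

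The distribution of the spacings of scaffold 5 left was shifted to longer distances. Spacings of 1 to 5 kb made up 16.9% ± 0.983 on scaffold 5 left, against 24.5% ± 0.726 on scaffold 5 right and 23.8% to 25.6% on the other arms. Spacings under 1 kb made up 6.16% ± 0.754 on scaffold 5 left and 5.95% ± 0.135 on scaffold 5 right, a difference within the spread. Spacings of 20 to 50 kb made up 25.4% ± 0.488 on scaffold 5 left, against 19.8% ± 0.743 on scaffold 5 right and 18.7% to 19.9% on the other arms. Spacings of 100 kb or more made up 2.45% ± 0.158 on scaffold 5 left, against 1.03% ± 0.0760 on scaffold 5 right and 0.782% to 1.85% on the other arms.

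On scaffold 4 the arms parted at short range although their densities did not. A neighbour within 2 kb was found for 24.6% and 28.6% of the summits of the left arm in replicates 1 and 2, and for 32.4% and 33.8% of those of the right arm, a difference of -6.47 ± 1.83 percentage points. The right arm therefore combined the closest clusters of summits with the second highest share of empty 100-kb windows. Peaks with no other summit within 50 kb were few on every arm, from 6 to 19 per arm and library, with means of 0.422% ± 0.103 on scaffold 1 left to 1.33% ± 0.199 on scaffold 4 right.

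Peak width varied little among the arms. The median width was 372 and 368 bp on scaffold 1 left, 372 and 360.5 bp on scaffold 1 right, 378 and 367 bp on scaffold 4 left, 362 and 362.5 bp on scaffold 4 right, 363 and 359 bp on scaffold 5 left, and 363 and 357 bp on scaffold 5 right. The left arm exceeded the right by 3.75 ± 5.30 bp on scaffold 1, 10.2 ± 8.13 bp on scaffold 4 and 1.00 ± 1.41 bp on scaffold 5. Only on scaffold 4 was the difference larger than its SD, and it was 16 bp in replicate 1 and 4.5 bp in replicate 2. In section 1 of scaffold 4 right the median was 329 ± 1.41 bp, and in section 3 of scaffold 5 left it was 317 ± 11.3 bp, the lowest of the 30 sections.

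Wide peaks, of 1 kb or more, numbered 183 in replicate 1 and 174 in replicate 2. They made up 3.01% and 3.12% of the peaks of scaffold 4 right, the highest share in both libraries, and 1.36% and 1.56% of those of scaffold 5 left, the lowest in both. The widest peak of all was on scaffold 5 right at 37562922 to 37565163, 2242 bp in replicate 1 and 2271 bp in replicate 2, with folds of 5.77 and 5.89. On scaffold 4 right a peak of 2230 bp in replicate 2 (47682390 to 47684619, fold 5.70) overlapped one of 1100 bp in replicate 1. Scaffold 4 right also held a peak of 1714 bp in replicate 1 (53776695 to 53778408) that was 1705 bp in replicate 2. The widest peaks of the other arms were 1401 to 1741 bp.

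**Figure D3:**
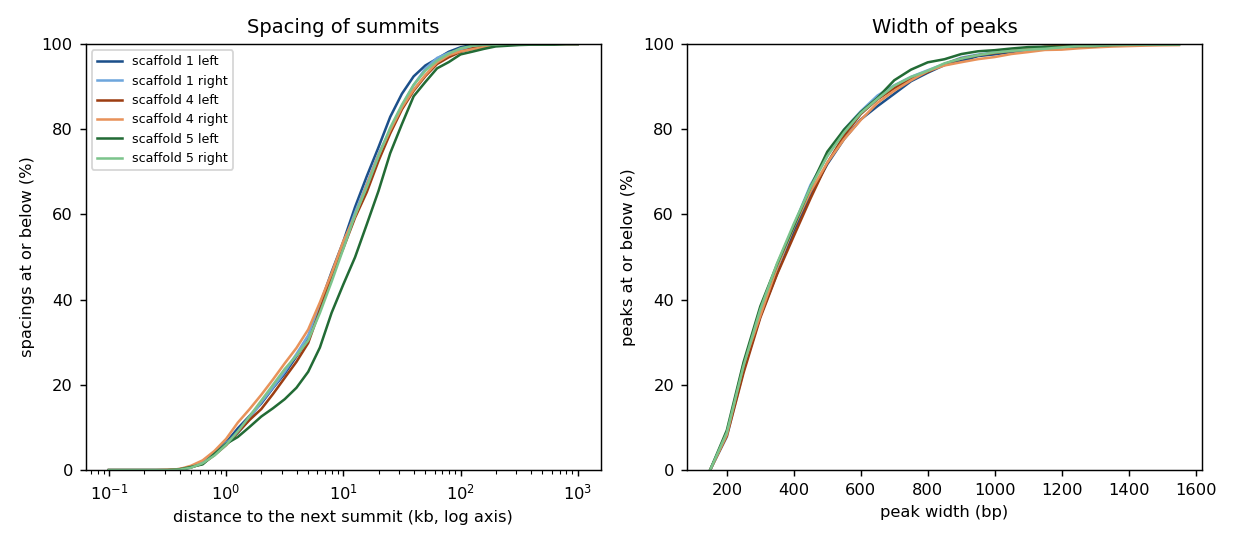
Cumulative share of the distances between neighbouring summits (left panel, kb, log axis) and of the peak widths (right panel, bp) on the 6 arms, each line the mean of 2 libraries. The spacing curve of scaffold 5 left lies to the right of the others (median 12.6 kb, against 8.92 to 9.46 kb), while the width curves of all arms nearly coincide (medians 360 to 372.5 bp).

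Peak strength was even among the arms. The median fold was between 4.56 on scaffold 5 left and 4.85 on scaffold 4 left in replicate 1, and between 4.81 on scaffold 5 left and 5.08 on scaffold 5 right in replicate 2. On scaffold 5 the left arm was lower than the right by 0.224 in replicate 1 and 0.265 in replicate 2. Its median fragments at the summit were 29 and 30, against 32 and 33 on the right arm.

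The strongest peaks that both libraries shared were found on arms of every density. On scaffold 4 right, 40189145 to 40189722 had a fold of 20.6 in replicate 2 with 242 fragments, and 17.6 in replicate 1. It lay 4.76 Mb from the centromere, next to the emptiest windows of that arm. On scaffold 1 left 14147892 to 14148459 had 20.5 in replicate 2 and 15.9 in replicate 1. On scaffold 5 right 36935140 to 36935500 had 20.1 in replicate 2 and 16.6 in replicate 1, and was the strongest peak of its arm in both.

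On scaffold 1 right 51740548 to 51741179 had 19.5 in replicate 1 and 19.1 in replicate 2, and 48129619 to 48130061 had 19.2 in replicate 2 and 16.0 in replicate 1. The largest on scaffold 5 left was 13329444 to 13330108, 2.20 Mb from the centromere, with 18.6 in replicate 2 and 14.6 in replicate 1. In the sparse run of that arm, 9121305 to 9121896 had 17.9 in replicate 1 and 18.0 in replicate 2. Scaffold 4 left reached 17.6 at 20436817 to 20437413 in replicate 2 and 17.1 at 16789858 to 16790366 in replicate 1. None of these peaks can be tied to a gene here, since gene positions were not used.

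Of the 6 arms, scaffold 5 left had the lowest overlap between libraries. There 74.96% of the peaks of replicate 1 and 69.1% of those of replicate 2 overlapped a peak of the other library by at least 1 bp, against 81.7% and 78.3% on scaffold 5 right. On the remaining arms it was 80.8% to 84.8% in replicate 1 and 76.6% to 78.2% in replicate 2. On every arm the overlapping peaks were wider and stronger, with mean medians of 404.5 to 424 bp and folds of 5.49 to 5.68, than those found in a single library, with 230 to 241 bp and folds of 3.44 to 3.61. The summits of overlapping pairs lay a median of 32.5 to 40 bp apart, and their folds had Spearman correlations of 0.868 to 0.885 across 444 to 1368 pairs per arm.

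A gene with a stated position lies on scaffold 5 right. KNL1, a protein of the outer kinetochore that links centromeres to spindle microtubules, is placed at 32785769 to 32848252, 62.5 kb long and 6.62 Mb from the centromere, with the higher coordinate named first. Within 2 kb of this locus 3 peaks were listed in replicate 1 and 2 in replicate 2. A peak at the first-named end was shared, 316 bp with a fold of 4.57 in replicate 1 and 364 bp with 4.79 in replicate 2, its summits 24 and 21 bp outside that end in the direction away from the locus.

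At the other end of the KNL1 locus a second shared peak was 388 bp wide with a fold of 3.28 in replicate 1 and 542 bp with 4.68 in replicate 2. Another peak of 213 bp and fold 2.87 was listed in replicate 1 alone, with its summit inside the locus, 58.4 kb from the first-named end. All of these folds were under the medians of their libraries. The 1-Mb window that holds the locus had 41 and 47 summits.

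Set against the rest of the assembly, the 3 scaffolds were compared with the 17 others that keep at least 5 Mb after the same cut around any listed centromere. Among these others only scaffolds 3, 10 and 12 have a listed centromere, so the rest were taken whole. The scaffold was the unit, with the mean of both libraries, and the exact two-sided permutation test ran over all 1140 choices of 3 scaffolds, the smallest possible p being 0.000877. Adjusted values are Benjamini-Hochberg values over 5 such tests. The p-values rest on scaffolds of 1 assembly, not on plants.

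Density was 58.8 summits per Mb on scaffolds 1, 4 and 5 and 64.5 on the others, a difference of -5.66 ± 0.0608 (exact permutation p = 0.189, adjusted 0.316). The 3 scaffolds ranked 13, 17 and 19 of 20 from the highest. Scaffold 9 was the lowest of all at 42.2 per Mb, and without it, an alternative chosen because this scaffold was known to stand apart, the difference was -7.06 (exact permutation p = 0.0155, adjusted 0.0344). The call thus depended on 1 scaffold of the comparison.

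Peaks covered 2.46% of scaffolds 1, 4 and 5 and 2.78% of the others, a difference of -0.317 percentage points (exact permutation p = 0.113, adjusted 0.283). Without scaffold 9 it was -0.377 (adjusted p = 0.0344 by the exact permutation test). The median spacing was 9.37 kb on the 3 scaffolds and 8.78 kb on the others, a difference of 0.591 ± 0.0936 kb (exact permutation p = 0.111, adjusted 0.283). Scaffold 5 had the widest mean spacing of all 20, at 10.1 ± 0.436 kb. Scaffold 19 was close to it at 9.95 ± 0.314 kb, a gap smaller than either SD. Median widths were 365 bp and 370 bp, a difference of -5.30 ± 2.44 bp (exact permutation p = 0.284, adjusted 0.355).

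Unevenness was 5.70 on scaffolds 1, 4 and 5 and 4.77 on the others, a difference of 0.937 (exact permutation p = 0.666, adjusted 0.666). The others ranged from 1.51 to 23.3, the highest being scaffold 9. Without scaffold 9 they averaged 3.61 and the difference was 2.09 (adjusted p = 0.0344 by the exact permutation test). Scaffold 4 then had the most uneven arms of all those compared, at 6.96, followed by scaffold 12 at 6.35 and scaffold 5 at 5.64.

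**Figure D4:**
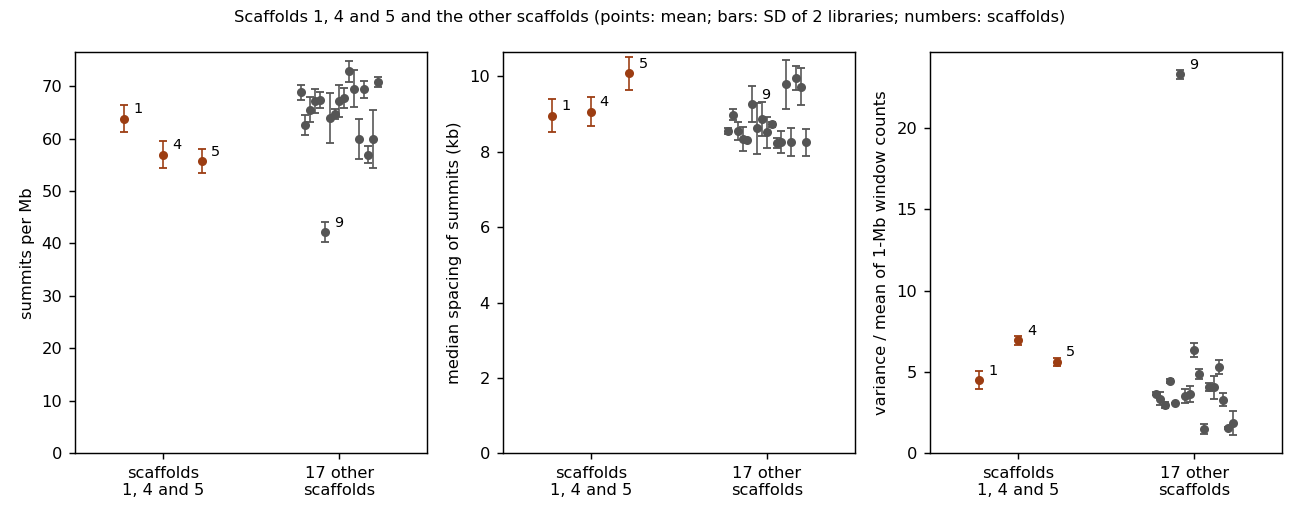
Summits per Mb, median spacing in kb and variance over mean of the 1-Mb window counts (y axes, from 0) on scaffolds 1, 4 and 5 (left in each panel) and the 17 other scaffolds (right); points are means, bars the SD of 2 libraries and numbers the scaffolds. Scaffold 9, at 42.2 summits per Mb and a ratio of 23.3, stands apart from the other 16.

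Scaffold 3, which also has a centromere with an arm on each side, also had a sparser left arm. Its shorter left arm held 54.9 ± 2.17 summits per Mb and its right arm 65.5 ± 1.85, with 6.50% and 1.98% of empty 100-kb windows. The long arms of scaffolds 10 and 12 held 63.9 ± 4.72 and 67.1 ± 3.04. Scaffold 5 left, at 45.5 ± 2.93, lay below all of these in both libraries, and no test was made of so few arms.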

How the data were processed

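The files are the peak lists of 2 ATAC-seq libraries. Adapters were trimmed by the authors with fastp. BWA-MEM was their aligner, against the *Cha. luteum* assembly of the study. SAMtools served to drop duplicates and reads mapping to several places (-q 30), and MACS called peaks per library, without pooling, at a q of 0.01. Use of a control, the effective genome size and the shift or extension of reads were settings not given in the sources used here. Deposited fold enrichment values are the ratio of signal to modelled background at the summit, after the same small number is added to both. The -log10 p and the -log10 q are also deposited for the summit, and the deposited score is the -log10 q scaled to a whole number.

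The members, measures and alternatives were chosen with earlier results of these data known. Centromere intervals and scaffold lengths came from the study's supplement. Fragments at a summit were solved from fold and p, with 1 added to signal and to background in the fold. They came out whole for 100% of the peaks (relative tolerance 0.0001). A peak was counted at its summit, and each measure was taken per library and then averaged. Coordinates are those of the authors' assembly, counted from 1. Regions were named by rule: for each arm, the fullest and emptiest full 1-Mb window, the fullest 100-kb window, the longest stretch without a peak, the widest and the strongest peak of each library among those overlapping the other, the innermost and outermost summits and the nearest beyond the limit, and the KNL1 locus with peaks within 2 kb. Scaffold tests and the sign-flip test were exact permutation tests. Of these, the density test and the sign-flip test were checked on simulated data. The simulated summits were placed at random and were less uneven than those of the libraries, so the check does not show how often these tests err on the real data. Alternatives were a -log10 q of at least 5, only overlapping peaks, overlap of 50% of both peaks, 1 or 5 Mb dropped beside the centromere, a window grid moved by 500 kb, each library alone, other scaffold sets, and others counted in the closing section. Measures were computed in Python 3.11.15 with scipy 1.17.1, pandas 2.3.3 and numpy 2.4.6, and plots drawn with matplotlib 3.10.9. Signal tracks, gene models and sequence were not used here.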

Additional observations from a re-analysis of the deposited data

How the results depend on the processing

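Without scaffold 9, the differences between scaffolds 1, 4 and 5 and the others were -7.06 summits per Mb, -0.377 percentage points of coverage and 2.09 in variance over mean, each with an adjusted exact permutation p of 0.0344. Under the other alternatives run, including each library alone, none of the 5 scaffold tests passed, and all kept their sign. The outer minus inner difference stayed unpassed in 9 alternatives (-0.107 to 3.65 per Mb, exact permutation p 0.438 to 0.969). The left minus right difference of scaffold 1 was 4.62 per Mb with a -log10 q of at least 5, 3.47 with overlapping peaks only, 3.03 with 50% overlap, and 4.46 and 7.61 with 1 and 5 Mb dropped beside the centromere. For scaffold 5 it was -14.2 with 50% overlap, and -13.3 and -16.9 with 1 and 5 Mb dropped. For scaffold 4 it was -5.04 with 5 Mb dropped, and it was negative in 4 and positive in 4 of 8 alternatives. The causes were not tested. A grid moved by 500 kb changed 7 of the 12 extreme 1-Mb windows by more than the spread between libraries, so their numbers and order depend on the grid: the fullest of scaffold 4 right held 114.5 summits as a mean, and the emptiest held 33 on scaffold 1 right, 18.5 on scaffold 4 left and 15.5 on scaffold 5 right. Weak sites under 11 fragments, the number of reads and the dropping of reads that map to several places limit every density.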
